A study of Caenorhabditis elegans with 2 samples.

Results

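Pooled ChIP-seq peaks of tagged NHR-90 at genes for small nucleolar RNAs (snoRNAs) and small nuclear RNAs (snRNAs) of Caenorhabditis elegans were set apart by position alone. A peak belonged to the set when its summit lay on a nuclear chromosome within 100 bp of the body of an annotated snoRNA or snRNA gene and not within 100 bp of a tRNA gene. This held for 228 of 30000 pooled peaks, 157 at snoRNA genes and 71 at snRNA genes, and none of the peaks near such a gene had to be left out for lying near a tRNA gene. Of the 228 peaks, 82 (36.0%, exact 95% interval 29.7 to 42.6) were in the IDR list, the peaks that passed the authors' threshold on the irreproducible discovery rate between replicates, and 146 were not. Over all 29981 nuclear pooled peaks 4.74% were in the IDR list, and over the 29267 not near a tRNA, snoRNA or snRNA gene 3.27% were.

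The chromatin came from whole hermaphrodite young adults of strain OP484, 64 h after synchronization as starved L1 larvae obtained by bleaching, in 2 biological replicates of this single group. The animals carried NHR-90 fused to a GFP tag. The sample description gives an antibody against GFP, while the antibody field names nhr-90, and a further note calls the tag a C-terminal GFP-FLAG fusion. The labels point to a possible control experiment, not analysed here; no untagged animals were compared, and the promoter that drives the fusion is not stated in the labels.

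Most snoRNAs pair with ribosomal RNA and guide the chemical modification of single nucleotides in it. The snRNAs are the RNA cores of the spliceosome or, in nematodes, donate the spliced leaders SL1 and SL2 in trans-splicing. Many snoRNA genes of animals lie in introns and are cut out of the host transcript, while others have a promoter of their own. Genes transcribed by RNA polymerase III from tRNA-type promoters carry box A and box B, the binding sites of transcription factor TFIIIC, and their transcription ends in a run of T. Genes for snRNAs instead carry a proximal sequence element upstream, bound by the SNAPc complex. NHR-90 is a nuclear hormone receptor, a class of DNA-binding proteins with zinc fingers.

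Upstream sequence is shown first, because the position of the summit and the box cores near it were among the features in which IDR peaks and other peaks at these genes differed, beside the class of the gene. Each stretch runs 5′ to 3′ on the strand of the gene, from 90 bp before its annotated 5′ end to 20 bp into the gene, on ce11 (RefSeq sequence of WBcel235). The first 6 are among the snoRNA genes with the strongest IDR peaks that held both cores. Capitals mark the match to the box A core GCNNAGTGG and, after it, to the box B core GTTCNANNC, with at most 1 mismatch in each.
C10C6.8: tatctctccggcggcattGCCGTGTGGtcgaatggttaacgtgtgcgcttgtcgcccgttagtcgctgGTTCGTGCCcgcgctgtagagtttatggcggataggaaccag
Y75B12B.12: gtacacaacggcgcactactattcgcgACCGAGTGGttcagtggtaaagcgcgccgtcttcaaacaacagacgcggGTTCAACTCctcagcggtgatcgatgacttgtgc
T06C12.16: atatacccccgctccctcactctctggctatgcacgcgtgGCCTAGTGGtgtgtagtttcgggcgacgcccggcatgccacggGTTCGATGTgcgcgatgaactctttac
F32E10.10: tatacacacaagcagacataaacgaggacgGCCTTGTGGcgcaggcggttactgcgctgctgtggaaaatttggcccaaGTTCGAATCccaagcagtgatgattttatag
T04A8.17: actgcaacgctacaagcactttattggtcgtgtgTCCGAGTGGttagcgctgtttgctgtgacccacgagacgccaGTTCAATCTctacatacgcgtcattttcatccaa
T03F7.8: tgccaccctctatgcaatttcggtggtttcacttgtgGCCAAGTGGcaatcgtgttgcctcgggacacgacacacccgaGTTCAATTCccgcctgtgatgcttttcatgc

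These stretches lie at C10C6.8 chrIV:11474172-11474281 (minus strand), Y75B12B.12 chrV:15191074-15191183 (minus strand) and T06C12.16 chrV:15873907-15874016 (minus strand), and at F32E10.10 chrIV:7574032-7574141 (plus strand), T04A8.17 chrIII:4689752-4689861 (minus strand) and T03F7.8 chrV:11314168-11314277 (plus strand). The next pair serves as contrast. ZK994.7 had the second strongest peak of the set and no such pair of cores. Y53F4B.47 had the third strongest peak outside the IDR list, and capitals mark its match to the word GGAACCCGC with at most 1 mismatch, a word seen upstream of many snRNA genes.
ZK994.7: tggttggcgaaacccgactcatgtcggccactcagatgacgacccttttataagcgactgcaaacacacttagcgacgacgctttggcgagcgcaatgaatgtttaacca
Y53F4B.47: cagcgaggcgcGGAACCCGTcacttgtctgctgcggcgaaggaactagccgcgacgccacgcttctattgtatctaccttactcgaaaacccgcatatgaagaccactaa

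They lie at ZK994.7 chrV:8500489-8500598 (plus strand) and Y53F4B.47 chrII:15025874-15025983 (minus strand). The last 4 are upstream of snRNA genes, 3 with an IDR peak (sup-6, F54D8.7 and sup-39) and 1 without (T08G5.11), and capitals mark the same word.
sup-6: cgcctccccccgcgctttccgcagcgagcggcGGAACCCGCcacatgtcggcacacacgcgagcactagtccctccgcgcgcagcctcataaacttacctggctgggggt
F54D8.7: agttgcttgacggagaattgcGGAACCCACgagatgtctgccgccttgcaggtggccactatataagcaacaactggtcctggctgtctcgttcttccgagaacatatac
sup-39: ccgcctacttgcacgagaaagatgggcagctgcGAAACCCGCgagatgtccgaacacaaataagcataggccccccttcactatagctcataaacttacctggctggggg
T08G5.11: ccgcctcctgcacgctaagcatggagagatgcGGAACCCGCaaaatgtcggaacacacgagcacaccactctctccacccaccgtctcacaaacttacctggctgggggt

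They lie at sup-6 chrII:12944948-12945057 (minus strand) and F54D8.7 chrIII:5080879-5080988 (minus strand), and at sup-39 chrII:6968539-6968648 (minus strand) and T08G5.11 chrV:14028616-14028725 (minus strand).

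The signal of a peak is the authors' value from the peak list. The IDR list was the top of the pooled list by signal, 1441 peaks with a lowest value of 98.9, so a higher signal of IDR peaks is built into the comparison and is given as a description only. In the set, IDR peaks had a median signal of 261 (range 98.9 to 666) and the others one of 42.4 (15.3 to 96.2). For comparison, nuclear pooled peaks away from tRNA, snoRNA and snRNA genes had a median of 26.2.

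The strongest peak of the set, ranked 16 in the pooled list, spanned chrV:12303440-12303854 with a signal of 666 at C51F7.4, a snoRNA gene that overlaps an exon of a protein-coding gene (frm-7). It had a signal of 393 in replicate 1 and 276 in replicate 2, on the scale of each replicate's own list. The summit of this peak also lay upstream of a second snoRNA gene, C51F7.3, and within 100 bp of it. C51F7.3 lies in an intron on the strand of its host, while the peak was counted as inside C51F7.4. The peak at ZK994.7, in an intron of pxn-1 on the same strand, spanned chrV:8500375-8500738 with a pooled signal of 605, and with 349.6 in replicate 1 and 251 in replicate 2. All 12 strongest peaks of the set were at snoRNA genes. The other 10 were at W03C9.9 (480.5), C10C6.8 (458), Y75B12B.12 (455), T19B4.8 (449), T06C12.16 (442), F32E10.10 (433), T04A8.17 (417), T03F7.8 (407), Y23H5B.10 (406) and C27H6.5 (400.1), each value being the pooled signal. Their replicate 1 signals ran from 207 at Y23H5B.10 to 291 at W03C9.9, and their replicate 2 signals from 178 at T04A8.17 to 207 at F32E10.10. Both replicates thus held a strong peak at each of the 12. C10C6.8, T04A8.17, T03F7.8 and C27H6.5 lay in introns, of catp-8, ppat-1, cutl-18 and unc-41, and the other 6 lay between protein-coding genes.

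At the edge of the IDR list, the 4 members just inside were at sls-2.15, an SL2 RNA gene, with a signal of 98.9, at F09G2.14 with 103.6, at F55A11.10 with 105.4 and at T19E7.29 with 106.8. F55A11.10 also had a stronger IDR peak, with a signal of 359. The 4 just outside were at Y74C9A.6 with 96.2, sls-2.8, another SL2 gene, with 94.5, Y53F4B.47 with 93.7 and T08G5.11 with 92.9. The signals on both sides of the edge were therefore close.

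Replicate signal was taken from the strongest replicate peak that overlapped each pooled peak. Every IDR peak of the set overlapped a peak of replicate 2 and 80 of 82 overlapped one of replicate 1, against 127 and 134 of the 146 other peaks. The medians were 159 in replicate 1 and 114 in replicate 2 for IDR peaks, and 32.8 and 25.4 for the others. Among the 1441 strongest peaks of each replicate alone, IDR peaks had an overlapping peak in 77 of 82 cases in replicate 1 and 80 of 82 in replicate 2, against 28 and 23 of the 146 others. Some of these 146 lie beside a stronger peak of the same gene and share its overlapping replicate peak. Of the 228 peaks, 60 were at 30 genes with 2 peaks each. Across the 198 members with a peak in both replicates, Spearman's rho between replicate signals was 0.905, and it was 0.875 over 80 IDR peaks and 0.714 over 118 others. These points share their 2 libraries, and the values describe the lists.

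**Figure D1:**
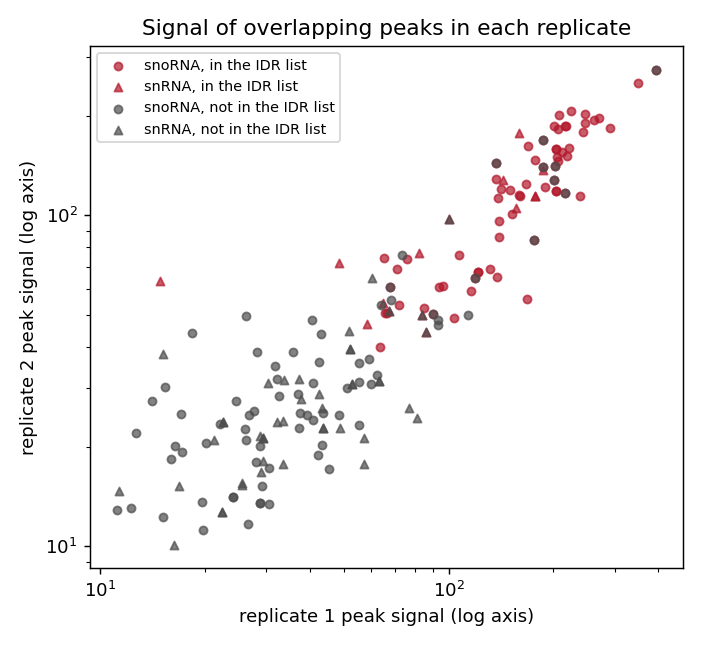
Signal of the strongest overlapping peak in replicate 1 (horizontal, log axis) and replicate 2 (vertical, log axis) for the 198 members with a peak in both, red for members in the IDR list and grey for the others, circles at snoRNA genes and triangles at snRNA genes. Signals rise together, with medians of 159 and 114 for IDR members and 32.8 and 25.4 for the others. Some dark points among the red ones are peaks outside the IDR list that overlap a neighbour's replicate peak.

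Peaks at snoRNA genes were in the IDR list more often than peaks at snRNA genes, 67 of 157 (42.7%, 34.8 to 50.8) against 15 of 71 (21.1%, 12.3 to 32.4). This is an odds ratio of 2.72 with a 95% interval from 1.43 to 5.18, and it passed a two-sided Fisher's exact test (adjusted p = 0.00646 over 15 tests). Peaks are not replicates, and this p-value and those that follow measure the counting of peaks, not the spread between animals. With 1 peak per distinct gene sequence the difference did not pass (odds ratio 2.38, adjusted Fisher's exact p = 0.0804), nor did it when the list was extended to 2232 pooled peaks, the size of the IDR list on the older build ce10 (1.57, adjusted p = 0.449). The median pooled signal was 70.2 (range 15.4 to 666) at snoRNA genes and 59.0 (15.3 to 335) at snRNA genes, a difference of 11.2 that did not pass a two-sided permutation test over peaks (p = 0.266). The same difference was 15.8 in the list of replicate 1 alone (permutation p = 0.0435) and 13.6 in that of replicate 2 alone (permutation p = 0.0156).

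**Figure D2:**
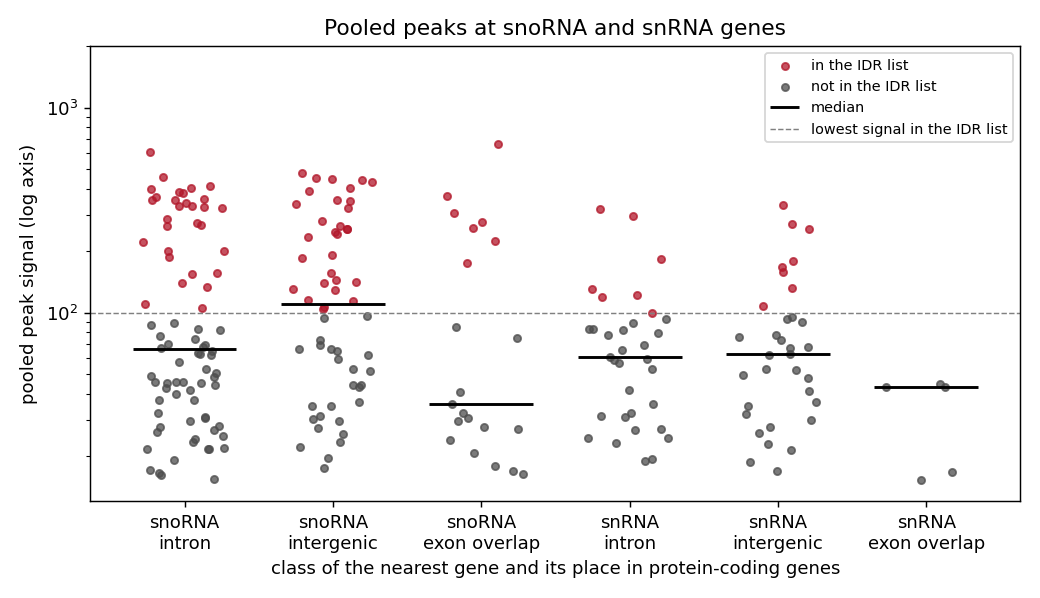
Pooled signal (log axis) of the 228 members by class and by the place of the gene, inside an intron of a protein-coding gene, between such genes, or overlapping an exon, with IDR members in red, others in grey and bars at the medians. The dashed line marks the lowest signal in the IDR list, 98.9; the 12 strongest members are at snoRNA genes, and 0 of the 5 at snRNA genes overlapping an exon pass it.

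Peaks at genes inside an intron were in the IDR list in 37 of 113 cases (32.7%, 24.2 to 42.2), and those at genes between protein-coding genes in 38 of 89 (42.7%, 32.3 to 53.6). The odds ratio of 0.656 had an interval from 0.370 to 1.16 and did not pass (adjusted Fisher's exact p = 0.350). At snoRNA genes the shares were 30 of 80 (37.5%) in introns, 30 of 56 (53.6%) between genes and 7 of 21 (33.3%) where the gene overlaps an exon. At snRNA genes they were 7 of 33 (21.2%), 8 of 33 (24.2%) and 0 of 5. Median signal was 65.1 in introns and 76.1 between genes (difference -11.0, permutation p = 0.290). It differed by -16.6 in replicate 1 alone (permutation p = 0.0254) and by -0.97 in replicate 2 alone, so the larger difference rests on replicate 1.

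No difference by strand passed the test. In introns, 30 of 88 peaks (34.1%) at genes on the strand of their host were in the IDR list and 7 of 25 (28%) at genes on the opposite strand (odds ratio 1.29, 0.495 to 3.34, adjusted Fisher's exact p = 0.743). All 7 on the opposite strand were at snoRNA genes, T04A8.17, T03F7.8, ZK484.9, C04G6.12, B0334.12, C27H5.9 and Y55F3BR.9, with pooled signals from 200.4 to 417. An snoRNA on the opposite strand cannot be cut from the transcript of that host. How these 7 genes are transcribed was not tested. The snRNA peaks in introns held 7 of 25 in the IDR list on the host's strand and 0 of 8 on the opposite strand. On the minus strand of the chromosome 36 of 97 peaks (37.1%) were in the IDR list and on the plus strand 46 of 131 (35.1%; odds ratio 1.09, 0.634 to 1.88, adjusted Fisher's exact p = 0.837).

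The position of the summit gave the smallest p of the 15 tests. Of 97 peaks with the summit upstream of the 5′ end of the gene, 60 (61.9%, 51.4 to 71.5) were in the IDR list, against 22 of 131 (16.8%, 10.8 to 24.3) with the summit inside or downstream of it. The odds ratio was 7.85 (4.27 to 14.4, adjusted Fisher's exact p = 3.62e-11). With members taken from each replicate's own list, it was 9.19 over 217 peaks of replicate 1 and 5 over 220 peaks of replicate 2. The relation was seen at snoRNA genes, with 55 of 78 upstream summits in the IDR list (70.5%), against 7 of 46 inside the gene (15.2%) and 5 of 33 downstream (15.2%). At snRNA genes the shares were 5 of 19 upstream (26.3%), 3 of 35 inside (8.57%) and 7 of 17 downstream (41.2%). The difference between the classes in this relation was not tested.

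IDR summits at snoRNA genes had a median offset of -29 bp from the 5′ end (quartiles -49 and -8), and other summits at snoRNA genes one of 59 bp (-2 and 156). At snRNA genes the median offsets were 82 bp for IDR summits (-14 and 166.5) and 51 bp for the others (0 and 110.5). The genes are short, with median lengths of 130 bp for snoRNA genes and 109 bp for snRNA genes. IDR peaks were also narrower, since 450 bp was the width of 23 of 82 (28.0%) and of 143 of 146 others (97.9%). The width was 450 bp in 68.6% of nuclear IDR peaks away from tRNA, snoRNA and snRNA genes and in 97.7% of the whole pooled list.

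**Figure D3:**
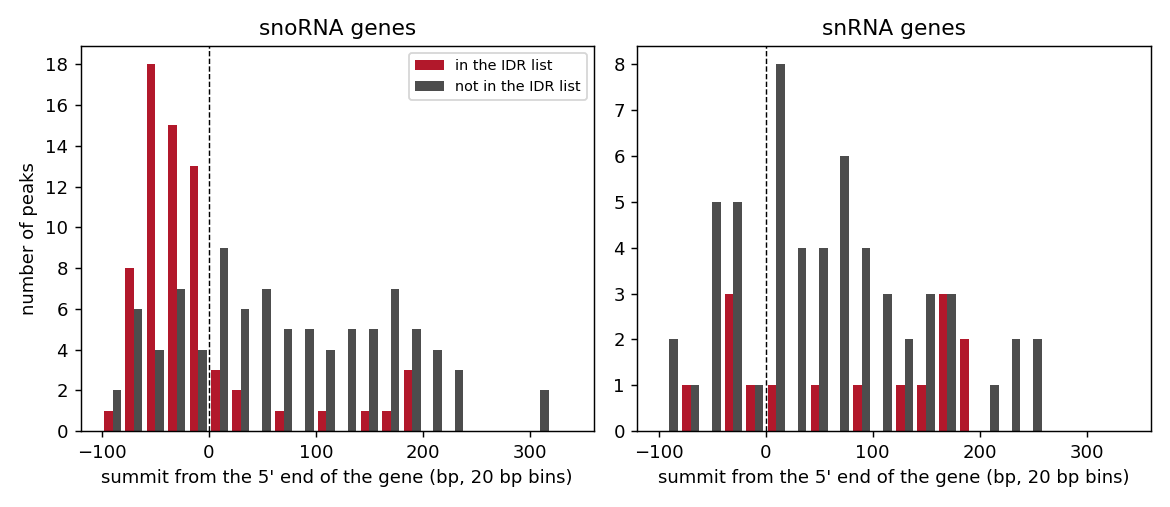
Number of peaks by distance of the summit from the 5′ end of the snoRNA gene (left panel) or snRNA gene (right panel), in 20 bp bins, with negative values upstream, red for IDR members and grey for others, and a dashed line at the 5′ end. At snoRNA genes 55 of 67 IDR summits are upstream, against 23 of 90 others; at snRNA genes 5 of 15 IDR summits are upstream, against 14 of 56 others.

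Matches to 8 short motifs were sought on both strands in the 100 bp centred on the summit. The box B core GTTCNANNC was found at 21 of 82 IDR peaks (25.6%) and at 9 of 146 others (6.16%), against 4.91% of all pooled nuclear peaks. Peaks with it were in the IDR list in 21 of 30 cases (70%) and peaks without it in 61 of 198 (30.8%; odds ratio 5.06, 2.23 to 11.5, adjusted Fisher's exact p = 4.61e-04). The box A core GCNNAGTGG was found at 12 IDR peaks (14.6%) and 2 others (1.37%), against 1.26% of all pooled nuclear peaks. Peaks with it were in the IDR list in 12 of 14 cases (85.7%) and peaks without it in 70 of 214 (32.7%; odds ratio 10.2, 2.56 to 41.0, adjusted Fisher's exact p = 6.03e-04). Because the window searched follows the summit, the tests of both cores are not independent of that of the summit position.

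The other 6 motifs did not pass, with adjusted p from 0.136 to 0.743. The GC box GGGNGNG was at 22.0% of IDR peaks and 13.0% of others (adjusted Fisher's exact p = 0.199), against 9.26% of all pooled nuclear peaks. The nuclear receptor site AGGTCA was at 2 IDR peaks (2.44%) and 7 others (4.79%), with 2.73% over all, and the GATA site TGATAA at 2.44% and 6.16%, with 9.75% over all. TATAAA was at 11.0% and 8.90%, with 8.91% over all. The E-box CACGTG was at 3 IDR peaks (3.66%) and 0 others, with 3.04% over all. The GA repeat GAGAGAG was at 0 IDR peaks and 6 others (4.11%), with 3.41% over all. Neither identical copies of the gene nor a protein-coding start nearby passed the test. Peaks at genes with an identical copy were in the IDR list in 6 of 25 cases (24%) and other peaks in 76 of 203 (37.4%; adjusted Fisher's exact p = 0.449). No snoRNA gene had an identical copy, so all 25 peaks lay at snRNA genes. Identical copies and class therefore cannot be told apart in this comparison. Among snRNA genes, 6 of 44 with an identical copy had an IDR summit (13.6%), and 7 of 85 without one (8.24%), which was not tested. With a protein-coding start within reach (from 1000 bp upstream to 500 bp downstream of it) the share of peaks in the IDR list was 33 of 92 (35.9%), and without one 49 of 136 (36.0%; odds ratio 0.995, 0.575 to 1.72).

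Upstream of the genes the cores occurred as a pair. A box pair was defined, after the sequences at the strongest peaks had been seen, as both cores on the strand of the gene, at most 1 mismatch in each, with box A first and box B starting 20 to 80 bp after it, in the window from 120 bp upstream to 20 bp downstream of the 5′ end. Because of that choice its counts are a description with no test. Of the 346 snoRNA genes, 41 held a box pair. An IDR summit lay at 30 of these 41 (73.2%, 57.1 to 85.8), against 35 of the 305 snoRNA genes without one (11.5%, 8.12 to 15.6). Seen from the peaks, 30 of 65 snoRNA genes with an IDR summit held a box pair (46.2%), against 3 of 75 with only a pooled summit outside the IDR list (4%) and 8 of 206 with no pooled summit (3.88%). The same window of protein-coding genes held one in 0.701% of 19973 cases, and tRNA genes, searched from 20 bp before to 120 bp after their 5′ end, in 506 of 612 (82.7%).

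The share depended on how the cores were written. Without mismatches 8 of the 65 genes held a pair, and with the looser box A core GCNNAGNNG 46 of 65 did (70.8%), against 17 of 75 genes with a pooled summit outside the IDR list (22.7%), 15.5% of snoRNA genes with no summit and 7.41% of protein-coding genes. On the other strand 2 of the 65 held the pair. None of the 41 box pairs overlapped an annotated tRNA gene, 3 overlapped a gene annotated as a pseudogene and 7 one annotated only as ncRNA.

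The pair lay at a similar place in most of these genes. At the 30 snoRNA genes with an IDR summit box A started at a median of 56 bp upstream (position -56, range -72 to -48) and box B at -13.5 (range -40 to -5). The median distance from box A to box B was 42.5 bp (quartiles 42 and 43), and in tRNA genes it was 43 bp (42 and 51). In the printed stretches the distance is 50 bp in C10C6.8 and 42 bp in T04A8.17. The summit lay a median of 23.5 bp after the start of box A at these snoRNA genes (quartiles 12 and 33) and 6 bp after it at 332 tRNA genes with an IDR summit (-3.25 and 41.25). The difference of 17.5 bp had p = 0.0408 in a two-sided permutation test over genes, unadjusted and chosen after the sequences were seen, with identical tRNA genes counted separately. Box A starts upstream of these snoRNA genes but at a median of 9 bp into tRNA genes, so a window around the gene bounds the summit differently. The test therefore cannot decide whether snoRNA and tRNA genes differ in this distance. The quartile ranges of both overlapped.

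**Figure D4:**
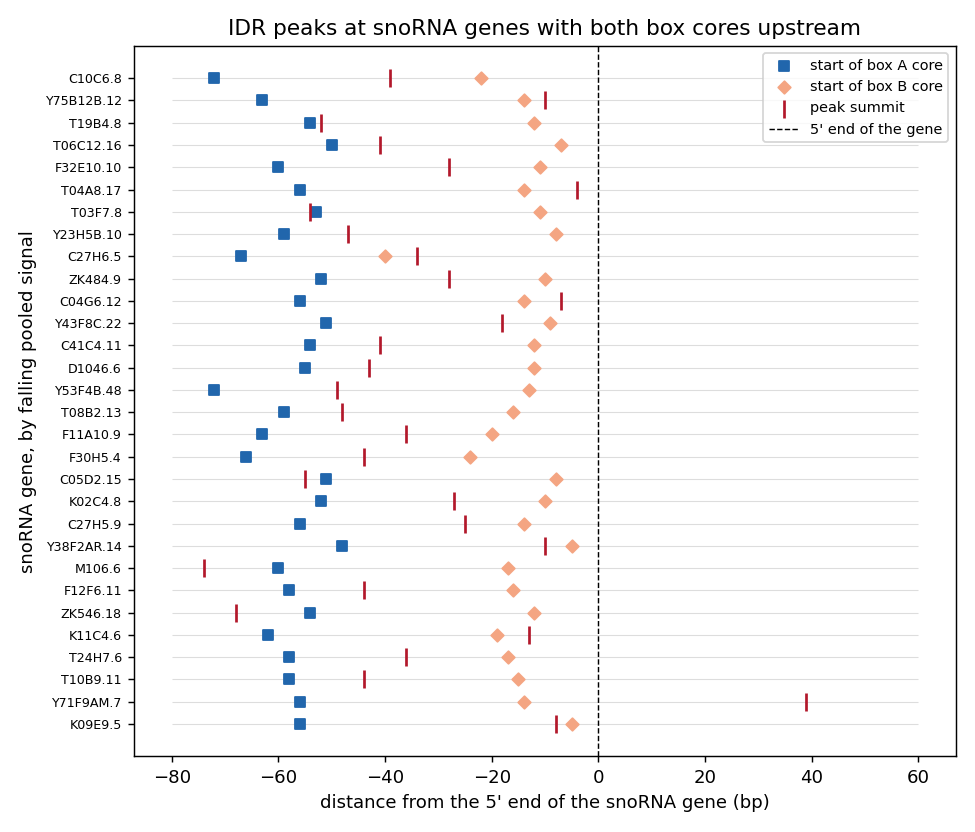
Start of the box A core (squares), start of the box B core (diamonds) and peak summit (red bars) in bp from the annotated 5′ end of the 30 snoRNA genes that had an IDR summit and a box pair, 1 gene per row by falling pooled signal. Box A starts between -72 and -48, box B between -40 and -5, and the summit is upstream of the gene in 29 rows and at 39 bp in the gene for Y71F9AM.7.

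The box pair and the upstream summit overlapped as features without being the same. Among peaks with an upstream summit at snoRNA genes, 29 of 31 with a box pair were in the IDR list (93.5%), and 26 of 47 without one (55.3%). Among summits inside the gene, 1 of 2 with a box pair and 6 of 44 without were in the list, and downstream 1 of 6 and 4 of 27. The pair was found at genes in introns as well as between genes. An IDR summit lay at 17 of 25 intronic snoRNA genes with a pair (68%) and at 12 of 15 between protein-coding genes (80%). By strand of the host it lay at 12 of 17 on the same strand and at 5 of 8 on the opposite one. These 5, T04A8.17, T03F7.8, ZK484.9, C04G6.12 and C27H5.9, are among the 7 intronic genes on the opposite strand named above.

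A run of 4 T lay within 30 bp after the end of 53 of 65 snoRNA genes with an IDR summit (81.5%, 70.0 to 90.1), of 42 of 75 with a pooled summit outside the IDR list (56%, 44.1 to 67.5) and of 88 of 206 with none (42.7%, 35.9 to 49.8). Among genes with an IDR summit it lay at 26 of 30 with a box pair (86.7%) and at 27 of 35 without one (77.1%). The word GGAACCCGC, with at most 1 mismatch in the 120 bp upstream, was distributed otherwise. It lay at 5 of 65 snoRNA genes with an IDR summit (7.69%, 2.54 to 17.0), 15 of 75 with a pooled summit outside the IDR list (20%, 11.6 to 30.8) and 9 of 206 with none (4.37%), against 0.180% of protein-coding genes. Both features were chosen after the sequences had been seen, and their counts are not tested.

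**Figure D5:**
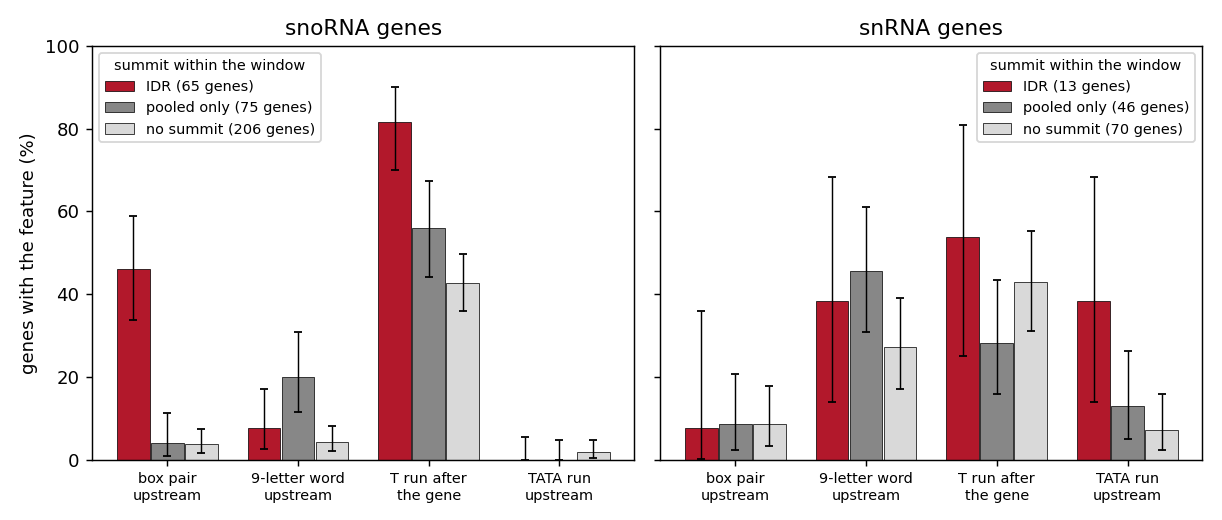
Share of snoRNA genes (left panel) and snRNA genes (right panel) that hold each sequence feature, for genes with an IDR summit (red), with only a pooled summit outside the IDR list (dark grey) and with none (light grey), with exact 95% intervals. The box pair is at 46.2% of snoRNA genes with an IDR summit, against 4% and 3.88% of the others, and the word is at 38.5%, 45.7% and 27.1% of snRNA genes.

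Of the 129 snRNA genes, 13 had an IDR summit (10.1%), 46 a pooled summit outside the IDR list and 70 none. The 15 IDR peaks were led by sls-2.4, an SL2 RNA gene, with a pooled signal of 335, and with 159 in replicate 1 and 178 in replicate 2. W05B2.8, in an intron of dhc-4, followed with 322 (186 in replicate 1 and 137 in replicate 2). The gene sup-6, known from suppressor mutations that alter U1 snRNA, the RNA that pairs with the 5′ splice site, had 2 IDR peaks with pooled signals of 294 and 183, one with its summit 167 bp after the 5′ end and one with its summit at -34 bp. Both overlapped the same replicate peaks, with signals of 177 and 114. The related suppressor gene sup-39 had an IDR peak with a pooled signal of 131.

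The other IDR peaks at snRNA genes were at sls-2.1 (271 and 107), F54D8.7 (256), sls-2.2 (178), M163.13 (167), C52E4.8 (159), F38E11.10 (131), C28A5.7 (121), Y9C9A.111 (119) and sls-2.15 (98.9), each value being a pooled signal. Of these, M163.13 differed most between the replicates, with a signal of 14.9 in replicate 1 and 63.2 in replicate 2. W05B2.8, C28A5.7 and Y9C9A.111 belong to 1 set of 14 genes with the same sequence, of which 3 had an IDR summit, 4 a pooled summit outside the list and 7 none. In a set of 7 identical genes that includes F08G2.10, 6 had a pooled summit, all outside the IDR list. Reads of identical copies may be shared between them, and how the authors placed such reads is not given in the sources used here.

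By family, SL2 genes had an IDR summit in 4 of 18 cases (sls-2.1, sls-2.2, sls-2.4 and sls-2.15), a pooled summit outside the list in 7 and none in 7. SL1 genes had no pooled summit in 12 of 12 cases. All 12 have identical copies, in a set of 10 and a set of 2, and since the placing of reads from such copies is unknown here, the 0 does not show that these genes were unbound. SmY genes, which encode small RNAs found with the trans-splicing machinery, had no IDR summit, and 2 of 12 had a pooled one. The stronger of these was at smy-3, with a pooled signal of 69.4 (42.3 in replicate 1 and 18.9 in replicate 2), and the other was at smy-1, with 30.9 (60.2 in replicate 1 and 64.8 in replicate 2). The replicate peaks that overlapped the smy-1 peak were stronger than those at smy-3, the reverse of the pooled order. A replicate signal is that of the strongest overlapping peak, which can be that of a neighbouring peak. Whether this holds at smy-1 was not tested, so the replicate values do not rank these genes. Among the SmY genes, smy-2 and smy-3 are annotated as snoRNA genes. The smy-3 peak was therefore counted with the peaks at snoRNA genes, and the smy-1 peak with those at snRNA genes.

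The word GGAACCCGC lay upstream of 45 snRNA genes, starting at a median position of -60 (range -73 to -55). Overlapping annotations counted as separate snRNA genes, so the same word can count again. The gene mir-1831, named as a microRNA, lies inside sup-39, and T27E4.22 overlaps T27E4.12, and each of them held the word. The word was at 5 of 13 snRNA genes with an IDR summit (38.5%, 13.9 to 68.4), at 21 of 46 with a pooled summit outside the IDR list (45.7%, 30.9 to 61.0) and at 19 of 70 with none (27.1%, 17.2 to 39.1), with overlapping intervals. The box pair was at 1 of 13, 4 of 46 and 6 of 70, shares between 7.69% and 8.70%. A TATATAA run between 40 and 15 bp upstream was at 5 of 13 (38.5%), 6 of 46 (13.0%) and 5 of 70 (7.14%), with wide intervals at 13 genes (13.9 to 68.4 for the first). It was at 0 of 65 snoRNA genes with an IDR summit. These counts are descriptions of the windows searched.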

How the data were processed

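ChIP-seq of tagged NHR-90 was analysed in 2 biological replicates of 1 group, so no groups of samples were compared. The authors deposited narrowPeak lists on ce11 and ce10: 1 list per replicate (30000 and 26622 peaks on ce11), 1 pooled list and 1 IDR list, per the deposited text records. The peak signal is the authors' value per peak, taken from the deposited lists, and it describes and ranks peaks within a list. The −log10 q-value, also deposited by the authors, had a highest value of 2.79 shared by 112 members, so it did not rank them. The deposited summit offset is the authors' distance in bp from the peak start. The pooled list is titled as peaks and background, so its lower peaks may be background. For the aligner, the peak caller, their versions and the cutoff on IDR: not given in the sources used here. Read depth is unknown, and intervals cover the counting of peaks or genes only.

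Genes came from Ensembl release 115 on WBcel235, the assembly of ce11, with symbols from RefSeq (475 of 475 snoRNA and snRNA genes matched). The 2 members near 2 such genes took the nearest. A gene counted as intronic when it lay inside a protein-coding gene and touched no exon. Two-sided Fisher's exact tests compared shares in the IDR list, with Benjamini-Hochberg adjustment over 15 tests and calls at an adjusted p under 0.05. For odds ratios and their Wald 95% intervals 0.5 was added to every cell, and shares have exact Clopper-Pearson intervals. Median signals were compared by permutation tests of 100000 draws. Members and lists were chosen with earlier results of these data known. The genes named are the 12 members with the highest signal, the 4 on each side of the edge of the IDR list, every snRNA member in it, and the strongest member of each named family; no gene had more than 2 member peaks. The genes of the printed sequences and the 7 intronic IDR genes on the opposite strand were named after their values were seen. So were Y71F9AM.7, F08G2.10, C51F7.3, smy-1 and smy-2. Each comparison was recomputed under up to 9 other settings, and that of the box pair also with no mismatch and with a looser box A core, added after the data were seen. For a replicate alone, members came from its own list, 217 in replicate 1 and 220 in replicate 2. Such a list holds no IDR calls of its own, so its odds ratios do not repeat the pooled outcome exactly. Scripts used Python 3.11.15, pandas 2.3.3, numpy 2.4.6, scipy 1.17.1, statsmodels 0.14.6 and matplotlib 3.10.9, and the tests were checked on simulated data.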

Additional observations from a re-analysis of the deposited data

How the results depend on the processing

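Of 174 values recomputed under alternatives, 154 kept their direction and their side of the threshold, or moved by less than their own interval. Those for the summit position and for both box cores did so under every alternative run. No paired analysis was possible because the study has 1 group and every comparison is between peaks of the same lists. The share of members in the IDR list was 45.2% when sharing 1 bp with an IDR peak sufficed, 44.3% with the 2232 strongest pooled peaks (the size of the ce10 IDR list) and 28.5% with the stronger 720 IDR peaks, which differ by construction in how many peaks count. The odds ratio of snoRNA against snRNA peaks lost its call at 1.57 with 2232 peaks and at 2.38 with 1 peak per gene sequence, where fewer peaks enter. Comparisons that were not called changed sign as follows, and the cause was not tested. For a protein-coding start the odds ratio was 1.23 with a 200 bp window, 1.20 with 1 bp shared, and between 0.591 and 1.00 in either replicate alone. For minus against plus strand it was 0.878 with 1 bp shared, 0.999 with 1 peak per gene sequence, and between 0.803 and 1.35 in either replicate alone. For the strand of the host it was 0.835 with the stronger 720 peaks and between 0.893 and 1.38 in either replicate alone. For identical copies it was 2.68 with 1 peak per gene sequence, for the GATA site 1.03 with 1 bp shared, and for AGGTCA between 0.842 and 1.66 in either replicate alone. The GC box was called with the stronger 720 peaks (2.53, adjusted Fisher's exact p = 0.0480). In either replicate alone the difference of median signals ran from 13.6 to 15.8 between snoRNA and snRNA peaks, and from -16.6 to -0.97 between intronic and intergenic ones. The odds ratio of the box pair at snoRNA peaks, chosen after the sequences were seen, was 8.38 and ran from 5.08 with the looser box A core to 18.6 with 1 peak per gene. Only 15 IDR peaks lay at snRNA genes, so shares among them have wide intervals. The numbers of reads are not used here, and a gene with no pooled summit may lack one for want of depth.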
